A study of Mus musculus with 10 samples.

Results

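The antibody constant regions and the J chain were examined in RNA of 4T1 tumors, as 9 genes (Igha, Ighm, Ighg1, Ighg2b, Ighg3, Igkc, Iglc1, Iglc2 and Jchain) of the 34449 in the deposited table. They were picked by symbol because Igha and Ighg2b were higher after therapy, so every difference between the groups in these 9 genes is given as a description, without a test. The 4T1 line is a mouse triple-negative breast carcinoma, grown here under the skin of the flank in BALB/c females, which the labels give as BALB/C and 9 weeks old. The 5 control libraries come from tumors of mice that did not receive BC@Z-M + L, and what those mice received is not stated for the sequencing. The other 5 libraries, labelled therapy, come from tumors treated with BC@Z-M + L. BC@Z-M is a zinc-based particle that carries the hypoxia-activated probe BN-O and the vascular disrupting agent CA4P inside a membrane of M1-like macrophages, and L is irradiation with a near-infrared laser. No genotype other than the strain is given for either group. Whether every library came from a different mouse is not stated, so the spread below is that between libraries.

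Antibodies are built from paired heavy and light chains, and the constant region of the heavy chain sets the class. B cells start with IgM, encoded by Ighm, and switch to IgG or IgA by joining the same variable region to another constant region gene. Plasma cells secrete the product, and the J chain links IgA into dimers and IgM into pentamers through the tailpiece at the end of their heavy chains. IgA is the main antibody of mucosal surfaces and milk.

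The ends of 3 heavy chains are shown because they separate the classes that can bind the J chain from IgG. Each run holds the last 57 coding bases (19 codons) of the secreted transcript in GENCODE M21 on GRCm38, read 5′ to 3′ on the minus strand of chromosome 12, at 113258771 to 113258827 for Igha, 113420870 to 113420926 for Ighm and 113306392 to 113306448 for Ighg2b. Capitals mark the codons for the cysteine and the tyrosine that close the tailpiece. The cysteine forms the bond to the J chain, and Ighg2b ends without the pair.
Igha: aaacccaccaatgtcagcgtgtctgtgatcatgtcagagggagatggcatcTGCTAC
Ighm: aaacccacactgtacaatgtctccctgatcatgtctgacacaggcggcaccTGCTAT
Ighg2b: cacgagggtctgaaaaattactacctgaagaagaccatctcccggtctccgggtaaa

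Values are FPKM, fragment numbers scaled to transcript length and to the size of the library, so levels of genes of different length can be set side by side. Deposited counts summed to 53411182 to 65263003 per library in the control group and to between 53446143 and 77510631 in the treated group. Low counts pile up at 4, so a count need not be a single read. The tumor label was checked on epithelial genes, with Epcam at 67.1 to 213 FPKM, Krt8 at 593 to 1411 FPKM and Krt18 at 493 to 1134 FPKM over the 10 libraries. The 9 antibody genes together made up between 0.00141% and 0.0150% of the summed FPKM of a library. In bulk RNA, fewer antibody-producing cells and less antibody RNA per cell cannot be told apart.

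Over all genes, edgeR's quasi-likelihood test on the counts called none of 18668 at an adjusted p under 0.05 (0% called), with 546 genes at an unadjusted p under 0.05, and limma on log2(FPKM + 1) called none of 12802, with 323 under that unadjusted limit. edgeR tested 6 of the antibody genes and left out Ighg3, Iglc1 and Iglc2 because their counts were low. Of the 6, Igha and Ighg2b were among the 355 genes higher at an unadjusted p under 0.05 (1.9% of those tested). DESeq2 called 4 genes higher of 26426 with an adjusted p (0.0151%), and 2 of these were Igha and Ighg2b. All 5 treated libraries were above all 5 controls in 34 of the 18668 genes tested (0.182%), again with Igha and Ighg2b among them, and the same was true of the untested Ighg3. In 56 of the genes tested all treated libraries were below all controls. Since the 9 genes were chosen on this difference, nothing about them is read from these counts. On the mean, 8 of the 9 were higher after BC@Z-M + L and Iglc2 was lower. The median log2 fold change of the 6 tested antibody genes was 0.91, beside 0.02 over all genes tested. Of all genes tested, 53.3% had a positive log2 fold change, which is the share to set beside the counts of higher genes below.

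**Figure D1:**
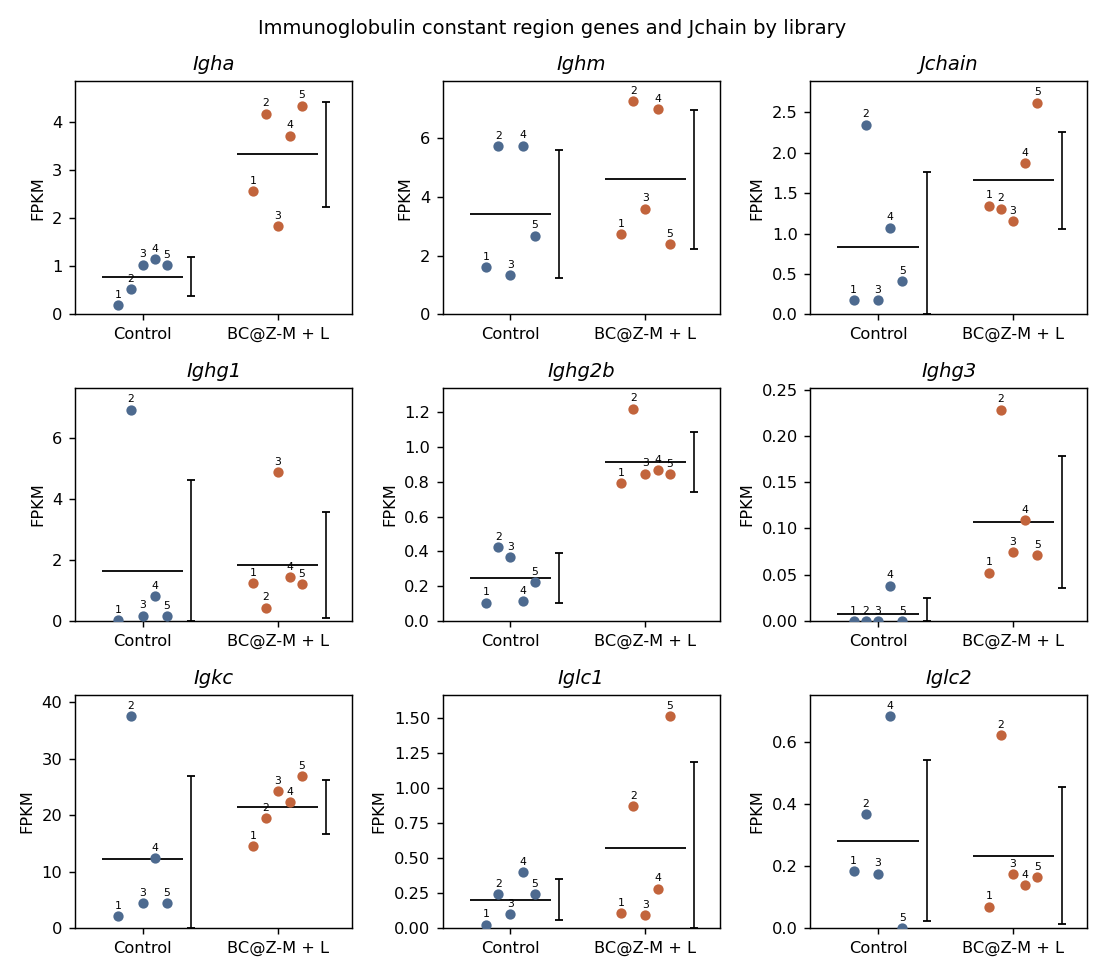
FPKM of the 9 antibody genes in the control and BC@Z-M + L groups, with a panel per gene. Each point is a library with its replicate number, the horizontal line is the group mean and the bar is 1 SD to each side, drawn from 0 where it would pass below it. In Igha, Ighg2b and Ighg3 the groups do not overlap, while control replicate 2 stands above the other controls in Ighg1, Igkc and Jchain.

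Among the heavy chains, Igha, the constant region of IgA on chromosome 12, was the class that differed most on the FPKM scale. Igha was at 0.197, 0.516, 1.03, 1.15 and 1.02 FPKM in control replicates 1 to 5 and at 2.55, 4.17, 1.83, 3.71 and 4.33 FPKM in BC@Z-M + L replicates 1 to 5. The groups did not overlap, and the highest control library lay below the lowest treated one. The means were 0.782 ± 0.407 and 3.32 ± 1.08 FPKM (SD, n = 5 each), a ratio of 4.25, with an edgeR log2 fold change of 2.12 ± 0.43 (SE). The log2 fold change of Igha stayed between 1.87 and 2.27 when each library was left out in turn.

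Ighg2b, on chromosome 12, encodes the constant region of IgG2b, a subclass that binds activating Fc receptors well. Ighg2b was at 0.106, 0.424, 0.366, 0.116 and 0.225 FPKM in the controls and at 0.793, 1.22, 0.846, 0.865 and 0.842 FPKM after BC@Z-M + L. The groups did not overlap, and 4 of the treated libraries lay close together with replicate 2 above them. The means were 0.247 ± 0.144 and 0.913 ± 0.173 FPKM (SD, n = 5 each), and the edgeR log2 fold change was 1.88 ± 0.39 (SE), with a range of 1.67 to 2.17 over the fits that each left out a library.

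Ighg3, which encodes the constant region of IgG3, a subclass made largely against carbohydrates, was the lowest of the 9 genes. It was listed at 0 FPKM in control replicates 1, 2, 3 and 5 and at 0.0384 FPKM (a count of 7) in control replicate 4. The treated libraries had 0.0524, 0.228, 0.0745, 0.109 and 0.0711 FPKM, from counts of 12, 40, 12, 20 and 12. All treated libraries were therefore above all controls, on counts that are too low for a fold change.

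Ighg1, the constant region of IgG1, a subclass that in mice goes with interleukin-4, behaved differently. Control values were 0.0438, 6.94, 0.180, 0.830 and 0.167 FPKM, and BC@Z-M + L values were 1.25, 0.443, 4.88, 1.43 and 1.21 FPKM. A single control, replicate 2, was the highest of all 10 libraries, and 3 of the 5 controls lay below every treated library. The means of Ighg1, 1.63 ± 2.98 and 1.84 ± 1.74 FPKM (SD, n = 5 each), hardly differed, and the edgeR log2 fold change was 0.15 ± 1.12 (SE). It became 2.61 without control replicate 2, and it turned negative without control replicate 1, 3, 4 or 5 or BC@Z-M + L replicate 3, with the lowest value, -0.63, in the last of these.

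Ighm, the constant region of IgM, was the heavy chain with the highest mean in both groups. It was at 1.60, 5.74, 1.34, 5.75 and 2.68 FPKM in the controls and at 2.72, 7.27, 3.60, 6.99 and 2.40 FPKM in the treated libraries. The groups overlapped broadly, each with 2 libraries well above the other 3. The means of Ighm were 3.42 ± 2.18 and 4.60 ± 2.36 FPKM (SD, n = 5 each), and its edgeR log2 fold change of 0.43 ± 0.47 (SE) was smaller than its standard error. It ranged from 0.20 without BC@Z-M + L replicate 2 to 0.71 without control replicate 2, and was also 0.24, 0.21 and 0.22 without control replicate 1, control replicate 3 and BC@Z-M + L replicate 4, and 0.66 without control replicate 4.

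The light chain RNA was nearly all kappa. Igkc, the only kappa constant region, on chromosome 6, was at 2.15, 37.5, 4.36, 12.4 and 4.35 FPKM in the controls and at 14.5, 19.4, 24.2, 22.2 and 26.9 FPKM after BC@Z-M + L. Control replicate 2 was the highest of the 10 libraries and the 4 other controls lay below every treated library. The means were 12.1 ± 14.7 and 21.4 ± 4.75 FPKM (SD, n = 5 each), and the SD divided by the mean was 1.21 in controls and 0.221 after treatment. The edgeR log2 fold change of Igkc was 0.82 ± 0.65 (SE) and moved to 1.92 without control replicate 2 and to 0.54 without control replicate 1.

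The lambda constant regions Iglc1 and Iglc2, on chromosome 16, came from counts of at most 44 and 29. Iglc1 ranged from 0.0244 to 0.399 FPKM in controls, with a median of 0.244, and from 0.0935 to 1.51 FPKM after treatment, with a median of 0.282. Iglc2 ranged from 0 to 0.683 FPKM (median 0.184) and from 0.0688 to 0.622 FPKM (median 0.163). In Iglc1 the treated replicates 2 and 5, at 0.870 and 1.51 FPKM, were above all other libraries, and in both genes the groups overlapped. Iglc2 shares 96.2% of its coding bases with Iglc3 in the reference, including a run of 79 identical bases, so reads could be split between the pair.

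Jchain, on chromosome 5, encodes the joining chain of secreted IgA and IgM. It was at 0.180, 2.35, 0.173, 1.07 and 0.411 FPKM in the controls and at 1.35, 1.31, 1.15, 1.87 and 2.62 FPKM after BC@Z-M + L. As with Igkc, 4 of the 5 controls lay below every treated library and control replicate 2 lay among the highest. The means of Jchain were 0.838 ± 0.922 and 1.66 ± 0.601 FPKM (SD, n = 5 each), with an edgeR log2 fold change of 0.999 ± 0.656 (SE), which was 1.89 without control replicate 2.

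Control replicate 2 was the highest control in Ighg1, Ighg2b, Igkc and Jchain. Its mean deviation from the control mean over the 9 genes was 1.12 on the log2(FPKM + 0.1) scale, the highest of all libraries, and that of control replicate 1 was the lowest at -1.01. Without control replicate 2, an exclusion chosen after its values were seen, 5 of the 9 genes had every treated library above every control, as Igkc and Jchain joined Igha, Ighg2b and Ighg3, beside 0.423% of all genes tested. Each of the other 9 exclusions left the count at 3, while the share over all genes tested ran from 0.284% to 1.13%. In control replicate 2 the summed FPKM of T cell markers was 7.59, the highest control, and that of genes for antibody transport and Fc binding was 213, also the highest control. It was 3.26 for B cell identity genes, below control replicate 4 at 4.18. The sum was 4.77 for lymph node stroma and follicles (group range 0.628 to 6.38), 4.17 for keratinocytes, the lowest control, and 7.52 for adipocytes, the median control. As a library, control replicate 2 had the highest summed FPKM, 359672 against 305814 to 323205 in the others, and the fewest genes above 0, 23442. Its median correlation with the other libraries, 0.965, was the lowest of the controls. The part of these cells, or of these library traits, in the values of control replicate 2 was not tested.

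**Figure D2:**
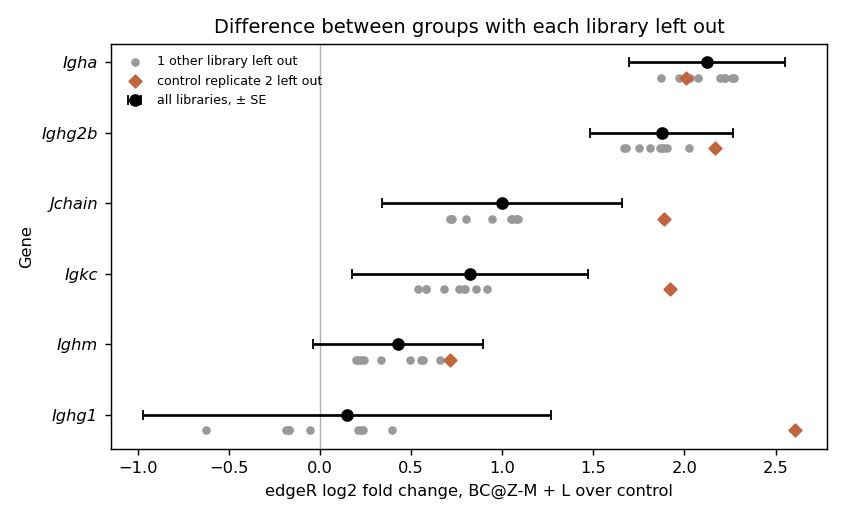
edgeR log2 fold change of BC@Z-M + L over control for the 6 antibody genes tested. Black points with bars are the estimate from all libraries ± SE, and the smaller points below are the estimates with 1 library left out, with diamonds for control replicate 2. Igha and Ighg2b stay within 1.67 to 2.27, while the diamonds of Igkc, Jchain and Ighg1 lie apart at 1.92, 1.89 and 2.61.

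The order of the members by mean FPKM in controls was Igkc, Ighm, Ighg1, Jchain, Igha, Iglc2, Ighg2b, Iglc1 and Ighg3, and the ranges of every pair of neighbours overlapped. After BC@Z-M + L it was Igkc, Ighm, Igha, Ighg1, Jchain, Ighg2b, Iglc1, Iglc2 and Ighg3. There only Igkc was separated from its neighbour by ranges that did not overlap. Igha passed Ighg1 and Jchain in this order of means, and its range in the treated libraries overlapped that of Ighm. Control replicate 2, with Igha at 0.516, Ighg1 at 6.94 and Jchain at 2.35 FPKM, was the only control with Igha below these genes. In every other control Igha already lay above both Ighg1 and Jchain.

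The class make-up was given within each library, which removes the overall amount of antibody RNA. Ighm held 42.1% to 82.2% of the summed FPKM of the 5 heavy chains in controls (median 65.6%) and 27.1% to 54.6% after BC@Z-M + L (median 36.9%). Igha held 3.79% to 35.4% in controls (median 14.6%) and 16.3% to 49.0% after treatment (median 31.3%). The shares of both genes overlapped between the groups. Ighg2b, whose FPKM values did not overlap, held 1.48% to 12.6% in controls and 6.60% to 10.8% after treatment, so its shares did. The shares of Ighg3 did not overlap, at 0% to 0.487% in controls and 0.663% to 1.71% after treatment, and they rest on the low counts given above. Summed heavy chain FPKM was 1.94 to 13.6 in controls (median 4.09) and 7.38 to 13.3 after treatment (median 11.2), with control replicate 2 the highest library.

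The mean share of Ighm was 61.8% ± 17.3 in controls and 40.8% ± 12.5 after treatment, a difference of -21.0 percentage points, and that of Igha was 17.7% ± 12.5 and 31.9% ± 11.8, a difference of 14.2 points (SD, n = 5 each). These differences ranged from -25.9 to -15.9 points for Ighm and from 9.89 to 18.6 points for Igha when each library was left out. Ighm was the leading heavy chain in 4 controls and Ighg1 in control replicate 2. After BC@Z-M + L it led in 3 libraries, Igha led in replicate 5 and Ighg1 in replicate 3.

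**Figure D3:**
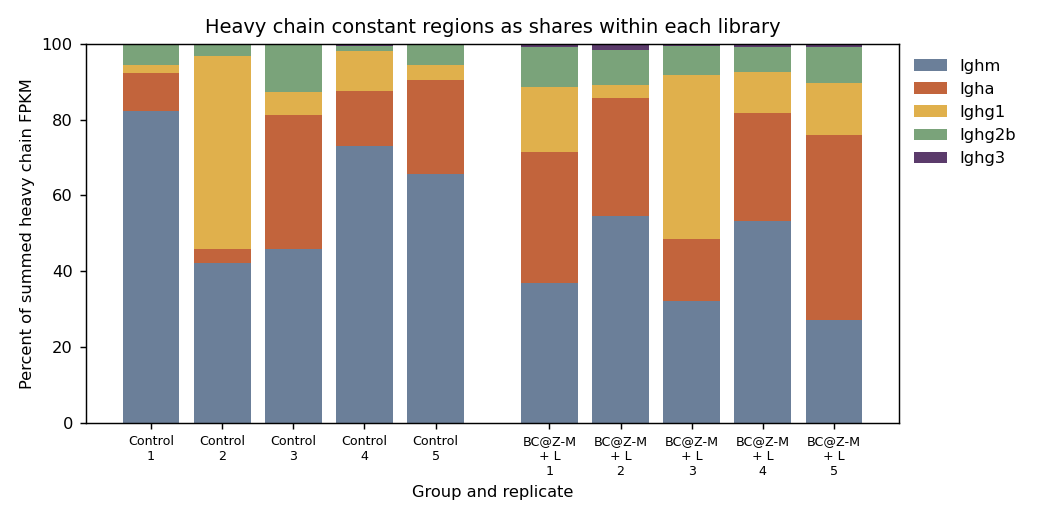
Share of each heavy chain gene in the summed FPKM of the 5 heavy chains, in percent, with a stacked bar per library. The control bars hold 3.79% to 35.4% Igha and the BC@Z-M + L bars 16.3% to 49.0%, and Ighg1 is the widest segment in control replicate 2 and in BC@Z-M + L replicate 3.

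The IgG genes Ighg1, Ighg2b and Ighg3 together held 7.68% to 54.1% of heavy chain FPKM in controls and 14.2% to 51.6% after treatment. Both highest values came from libraries in which Ighg1 led, namely control replicate 2 and BC@Z-M + L replicate 3. The lambda share of light chain FPKM, from Iglc1 and Iglc2 without Iglc3, was 1.60% to 8.85% in controls and 1.10% to 7.13% after treatment. The ratio of summed light to summed heavy chain FPKM was 1.12 to 2.80 in controls and 1.57 to 3.22 after treatment, and the ratio of Jchain to Igha plus Ighm was 0.073 to 0.375 and 0.114 to 0.389. All of these ratios overlapped between the groups.

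How the members varied together within a group was tested on deviations from the group mean of log2(FPKM + 0.1), a measure that does not contain the difference between the groups. For 6 relations over the 10 libraries, pairings were permuted within groups. Summed heavy and summed light chains went together, with r = 0.937 (two-sided exact permutation p = 0.00472, adjusted p = 0.0283 over the 6) and rho = 0.770 (exact p = 0.0716, adjusted p = 0.197), so the rank measure did not pass. Without the libraries farthest from the median, control replicates 1 and 3, r was 0.875. Both sums come from the same library and share its scaling. The adjusted p of this r was 0.0225 to 0.0292 with other pseudocounts or with CPM in place of FPKM. It lay above 0.05 when any single control or BC@Z-M + L replicate 1 was left out. The r pools both groups and was not computed in each. Heavy and light sums spread from 1.94 to 13.6 and 2.36 to 38.1 FPKM in controls. After treatment they spread from 7.38 to 13.3 and 14.6 to 28.5 FPKM. There replicate 5, with the highest light sum, had a heavy sum of 8.85 FPKM. Replicate 2, with the highest heavy sum, had a light sum of 20.9 FPKM.

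Jchain followed Ighm with r = 0.669 (exact permutation p = 0.0866, adjusted p = 0.173) and rho = 0.709 (exact p = 0.0986, adjusted p = 0.197), and r was 0.686 without the farthest libraries. Jchain with Igha gave r = 0.240 (exact permutation p = 0.636, adjusted p = 0.636) and rho = 0.139 (exact p = 0.755, adjusted p = 0.755), with r = -0.36 without the farthest libraries. Igha with Ighg2b, the pair behind the choice of the 9 genes, gave r = 0.293 (exact permutation p = 0.564, adjusted p = 0.636) and rho = 0.164 (exact p = 0.713, adjusted p = 0.755), with r = -0.23 without the farthest libraries. None of these 3 relations passed. As a description, 34 of the 36 pairs of members had a positive r, with a median of 0.368, and the highest were Igkc with Jchain at 0.926 and Ighg1 with Igkc at 0.893.

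**Figure D4:**
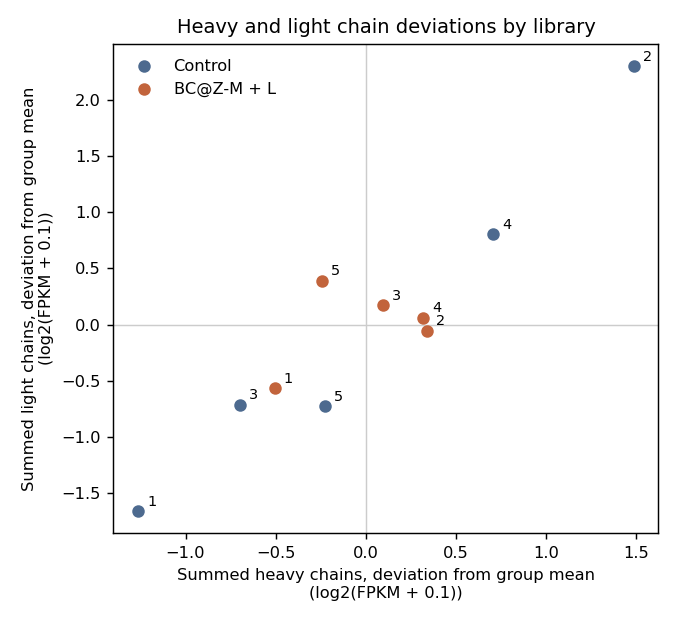
Deviation of each library from its group mean, on the log2(FPKM + 0.1) scale, for summed heavy chains (horizontal axis) and summed light chains (vertical axis), with replicate numbers. Over the 10 libraries together r was 0.937. The controls lie along a rising line from replicate 1 at the lower end to replicate 2 at the upper end. The treated libraries spread less, and among them replicate 5, the highest in light chains, lies below the group mean in heavy chains.

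The antibody heavy chains contain a variable region as well, so the variable segments were summed as a second reading of the same RNA, chosen after the members' values were seen. The 91 kappa variable segments (Igkv) summed to 0.757 to 24.5 FPKM in controls (median 5.02) and to 13.3 to 22.7 FPKM after BC@Z-M + L (median 16.6). Their ratio to Igkc was 0.353 to 1.15 in controls and 0.618 to 1.02 after treatment. The 78 heavy variable segments (Ighv) had a ratio to the summed constant regions of 0.0805 to 0.609 and 0.255 to 0.564. Both ratios overlapped between the groups. Gene-level values do not separate secreted antibody RNA from membrane forms or from transcripts of an unrearranged constant region.

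Of the remaining constant region genes looked for, 4 are in the deposited table, while no gene there carries the symbol Ighg2a or Iglc4. Ighg2c had 0, 0.176, 0.214, 0 and 0.171 FPKM in the controls and 0.877, 0.783, 0, 0.466 and 0.729 FPKM after BC@Z-M + L, with replicate 3 at 0 in the treated group. Its edgeR log2 fold change was 2.36 ± 1.10 (SE, adjusted p = 0.985), and that of Ighe, the IgE constant region, was -1.09 ± 0.95 (SE, adjusted p = 0.985), or -0.015 without control replicate 2. None of the 3 genes tested in this list was called, and their median log2 fold change was -0.66 beside 0.02 over all genes.

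Ighg2b and Ighg2c share 85.6% of their coding bases, and BALB/c mice carry Ighg2a in the place where the C57BL/6 reference has Ighg2c. The values listed for Ighg2c in these BALB/c tumors may therefore hold reads of Ighg2a or Ighg2b, which was not tested. No Ighg2a sequence was at hand, so its likeness to Ighg2b was not measured. The longest stretch that both hold in full, 78 bases within an exon of Ighg2b on the minus strand of GRCm38, chr12:113306869-113306946, is shown because reads that fall inside it cannot be assigned to either gene.
Ighg2b and Ighg2c: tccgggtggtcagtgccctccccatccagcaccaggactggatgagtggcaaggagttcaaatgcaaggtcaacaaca
The other pairs among Ighg1, Ighg2b, Ighg2c and Ighg3 share 73.9% to 75.5% of coding bases with runs of 28 to 41 bases.

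The cells that make antibodies were read from lists of marker genes that were not used to pick the members. Of 13 tested B cell identity genes of 16, none was called by edgeR or DESeq2, 11 were higher and 2 lower, and their median log2 fold change was 0.22. Spib, a transcription factor of B cells and plasmacytoid dendritic cells, was at 0.141, 0.158, 0.154, 0.159 and 0.158 FPKM in controls and at 0.288, 0.264, 0.416, 0.461 and 0.324 FPKM after treatment. The groups did not overlap, the means were 0.154 ± 0.00733 and 0.351 ± 0.0847 FPKM (SD, n = 5 each), and the edgeR log2 fold change of Spib was 1.19 ± 0.25 (SE, adjusted p = 0.985), so it did not pass. The log2 fold change of Blk, a kinase of the B cell receptor pathway, was 1.01 ± 0.71 (SE), and for Cd79b, a signalling chain of that receptor, it was 0.05 ± 0.45 (SE). Neither passed. The B cell sum was 1.76 to 4.18 FPKM in controls and 3.10 to 4.24 FPKM after treatment.

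Among 15 tested genes of plasma cell identity and antibody secretion, none was called, 9 were higher and 6 lower, with a median log2 fold change of 0.01. Slamf7, a receptor on plasma cells, NK cells and other leukocytes, had a log2 fold change of 1.46 ± 0.47 (SE, adjusted p = 0.985 by edgeR), and Eaf2, a transcription elongation factor, -0.72 ± 0.31 (SE, adjusted p = 0.985 by edgeR). Tnfrsf17, the receptor BCMA that marks plasma cells, was listed at 0 in all 10 libraries. The genes of the list with the highest mean FPKM over all 10 libraries, Sdc1 at 99.1 ± 35.4 and 116 ± 38.8 FPKM and Txndc5 at 53.5 ± 5.81 and 53.2 ± 10.5 FPKM (SD, n = 5 each), are also used by epithelial and other secretory cells, and they take a large part of the summed FPKM of 263 to 329 in controls and 264 to 347 after treatment.

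Within groups, the mean deviation of the 9 members went with that of the plasma cell list at r = 0.690 (exact permutation p = 0.0457, adjusted p = 0.137) and rho = 0.673 (exact p = 0.0497, adjusted p = 0.197), and r was 0.291 without control replicates 1 and 3. With the B cell list it was r = 0.415 (exact permutation p = 0.455, adjusted p = 0.636) and rho = 0.345 (exact p = 0.410, adjusted p = 0.615), with r = -0.083 without those controls. Neither relation passed the adjustment.

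Genes of class switching gave no call among 16 tested of 20, with 9 higher, 7 lower and a median log2 fold change of 0.08. Tnfsf13b, the B cell survival factor BAFF, had a log2 fold change of 1.44 ± 0.69 (SE, adjusted p = 0.985 by edgeR) and Il10, an interleukin that promotes IgA in human B cells, 1.42 ± 0.86 (SE, adjusted p = 0.985 by edgeR). Without BC@Z-M + L replicate 5 these values were 0.28 and -0.12. Tgfbr2, a receptor chain for the transforming growth factor that drives the IgA switch, had a log2 fold change of 0.08 ± 0.11 (SE) and Stat6, which carries the interleukin-4 signal, 0.22 ± 0.14 (SE). None of these passed.

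Genes that carry or bind antibody gave no call among 8 tested of 10, with 7 higher, 1 lower and a median of 0.07. Fcgr4, a mouse Fc receptor for IgG2 subclasses, was at 18.6 ± 5.15 FPKM in controls and 24.7 ± 4.20 FPKM after treatment (SD, n = 5 each), a log2 fold change of 0.42 ± 0.20 (SE, adjusted p = 0.985 by edgeR). On the same scale the inhibitory receptor gene Fcgr2b had 0.18 ± 0.30 (SE), Fcgr3 0.07 ± 0.23 (SE) and the shared signalling chain gene Fcer1g 0.14 ± 0.19 (SE). None of the 4 passed.

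Markers of other cells that a tumor sample can hold were summed for each library. T cell genes were higher on the mean in 7 of 7, beside 53.3% of all genes tested with a positive log2 fold change. By edgeR, 6 of the 7 were higher at an unadjusted p under 0.05, beside 1.9% of all genes tested, and none was called. Their sums were 4.53 to 7.59 FPKM in controls and 6.41 to 19.0 FPKM after treatment. Lymph node stroma and follicle genes summed to 0.628 to 6.38 FPKM and 1.67 to 14.9 FPKM, and keratinocyte genes to 4.17 to 52.2 FPKM and 4.09 to 325 FPKM, with BC@Z-M + L replicate 2 highest in both. Adipocyte genes summed to 5.46 to 245 FPKM, highest in control replicate 4, and 7.42 to 50.4 FPKM.

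Skeletal muscle genes summed to 4.36 to 44.5 FPKM in controls and 3.10 to 82.6 FPKM after treatment, and mammary epithelium and milk genes to 0.431 to 9.62 FPKM and 0.356 to 13.8 FPKM. No gene of these lists was called, their sums overlapped between the groups, and only Tnfrsf17 of all listed genes in the table was at 0 throughout. Without BC@Z-M + L replicate 2 the log2 fold change was 2.03 for Igha and 1.75 for Ighg2b, and without control replicate 4 it was 2.27 and 1.67. The part of such cells in the values of the antibody genes was not tested.

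The genes whose deviations most resembled the mean deviation of the 9 members were searched among 12791 genes whose mean FPKM was 1 or more. The members and all genes named as immunoglobulin segments were left out of this search, so variable segments could not appear in it. The 10 highest over the 10 libraries were Gm12844 (r = 0.954), Rbm39 (r = 0.936), Rpl22 (r = 0.917), Rps27a-ps3 (r = 0.913), Rpl36a-ps1 (r = 0.904), Rpl10a (r = 0.901), Rpl10a-ps1 (r = 0.888), Rpl10-ps1 (r = 0.883), Rpl10-ps3 (r = 0.876) and Rps24 (r = 0.874). Rbm39 encodes an RNA-binding protein of splicing and 3 of the others encode ribosomal proteins. The symbols ending in -ps and a digit are pseudogenes, which share reads with the gene they copy. The 10 genes were taken as the highest of 12791, and all of their log2 fold changes between the groups lay between -0.28 and -0.01. The mean deviation of the members ran from -1.01 to 1.12 in controls and from -0.481 to 0.314 in treated libraries. The controls therefore weigh most in these r, which were not repeated with libraries left out.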

How the data were processed

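Tumor RNA of 5 control and 5 BC@Z-M + L libraries was used. The authors extracted total RNA with TRIzol, prepared TruSeq libraries, ran FastQC on the reads, used HISAT2 for alignment and estimated expression with StringTie, which gave the deposited FPKM values. The submitters' notes add cutadapt 1.9. How the deposited whole-number counts were made, and the versions of HISAT2 and StringTie, are not stated there or in the labels. The labels name GRCm38 while the methods name a later Ensembl release, so genes are placed by chromosome only and sequences come from GENCODE M21 on GRCm38. The labels also differ from the methods in the sequencer and in the number of replicates, and all 10 libraries were used. Of the gene IDs, 32542 matched the GRCm38 table of names and 1907 did not. No columns with values of libraries were left unused. No pair of libraries agreed within sampling noise (smallest chi-square per degree of freedom 58.8).

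The members and the lists were chosen with earlier results of these data known. Counts were fitted with edgeR 4.0.16 (TMM, filterByExpr, quasi-likelihood test, Benjamini-Hochberg adjustment, threshold 0.05) in R 4.3.3. The alternatives were DESeq2 1.42.0, limma 3.58.1 on log2(FPKM + 1) over genes whose mean FPKM was 1 or more, no filter, upper-quartile scaling, counts divided by 4, a replicate block and each library left out. The fits were tested on simulated data. Log2 fold changes are from edgeR. Relations used exact permutation of deviations within groups with a pseudocount of 0.1. Named were the 9 members, in each list the 2 genes with the highest mean FPKM and the 2 tested genes with the largest change (not all are printed), and the 10 genes most like the members. Choices made after values were seen are marked as such. Depth limits precision most for Ighg3, Iglc1 and Iglc2.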

Additional observations from a re-analysis of the deposited data

Results flagged for a closer look

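Values that stood apart from the other 4 libraries of their group were searched for by Dixon's gap criterion at the 95% level in 42 groups of 5, over the 9 genes and 12 shares, sums and ratios made from them. There were 11 such values. Chance alone gives about 1 in 20 groups where values are normally distributed, which raw FPKM and shares with values at 0 need not be. The measures are also not independent of each other, so the 11 are not set against an expected number. Control replicate 2 gave 5 of them, with Ighg1 at 6.94 FPKM, Igkc at 37.5 FPKM, an Ighg1 share of 51.0% of heavy chain FPKM, an IgG share of 54.1% and a ratio of Jchain to Igha plus Ighm of 0.375. BC@Z-M + L replicate 2 gave 3, with Ighg2b at 1.22 FPKM, Iglc2 at 0.622 FPKM and Ighg3 at 1.71% of heavy chain FPKM. BC@Z-M + L replicate 3 stood apart in Ighg1 at 4.88 FPKM. Control replicate 4 stood apart in Ighg3 at 0.0384 FPKM and 0.487% of heavy chain FPKM, since the other controls were listed at 0. Igha gave no such value in either group.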

How the results depend on the processing

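With DESeq2 in place of edgeR, 4 genes were called higher and 2 lower, of which 2 were antibody genes, against 0 in every other setting. The r of heavy with light chains ran from 0.869 to 0.969 when each library was left out. Its adjusted permutation p was then 0.0250 to 0.181, and it lay above 0.05 without any single control library or without BC@Z-M + L replicate 1. It was 0.0250 to 0.0417 without any other single treated library. All these sets hold 9 libraries and allow fewer permutations than the full set. The r of Jchain with Igha ran from -0.21 without control replicate 1 to 0.576, and that of Igha with Ighg2b from -0.25 without control replicate 1 to 0.591, and neither passed in any setting. On log2(FPKM + 1) the difference was 1.27 for Igha and 0.62 for Ighg2b, since the pseudocount compresses low values. Whether the replicate numbers pair the libraries is not stated, and correlations of deviations cannot decide it. For same-numbered libraries these were -0.27, -0.10, 0.0288, 0.371 and -0.073. The 0.371 of replicate 4 was the highest of any control with any treated library. With a replicate block 0 genes were called, and the log2 fold changes were 2.26 for Igha, 2.05 for Ighg2b, 2.30 for Ighg1, 1.63 for Igkc and 1.70 for Jchain. The fitted values of Ighg3 depend on the prior count and are not given.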
